A study of Mus musculus with 3 samples.

Results

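The Hox genes were read out in NIH3T3 cells, an immortalised fibroblast line derived from mouse embryos, on 1-colour Agilent Mouse 8x60K arrays. All genes of the mouse Hoxa, Hoxb, Hoxc and Hoxd clusters numbered 1 to 13 were taken, by matching the RefSeq accession of each probe to a gene table. This gave 39 Hox genes, all 39 that the gene table holds, with 43 probes among the 27235 named probes and 20660 named genes of the arrays. Confluent cells were cultured for 24 h without additions (None), with 20 µM AR7, a small molecule that binds retinoic acid receptor alpha (RARα) and activates chaperone-mediated autophagy, or with 20 µM BMS614, a selective RARα antagonist. Both compounds were dissolved in DMSO, and the sources used here do not say whether the None cells received DMSO. The labels give no genetic modification for any of the cells and call them all wild type. There is 1 array per condition and all 3 lie on 1 slide, so differences between the cultures are given as values, without replicates, tests or p-values.

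Hox genes encode homeodomain transcription factors that give cells along the body axis their positional identity. They lie in 4 clusters, and the order of genes in a cluster follows their order of expression in the embryo, with low-numbered genes expressed early and anteriorly and high-numbered genes late and posteriorly. Genes with the same number in different clusters are paralogs and form a paralog group. Fibroblasts are known to keep much of the Hox pattern of the body site they came from, held by Polycomb proteins that silence and Trithorax proteins that maintain the clusters. Retinoic acid, the ligand of RARα, is a classical inducer of the low-numbered Hox genes in the embryo through response elements in and around the clusters.

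To find which Hox genes these fibroblasts expressed, the flag of the scanner software that marks a spot as well above background was used, on the brightest probe of each gene. On all 3 arrays 19 of the 39 Hox genes were well above background, or 48.7%, against 66.8% of all named genes. A further 7 Hox genes were well above background on 1 or 2 arrays and 13 on none, so 26 passed on at least 1 array, where 74.4% of all named genes did. The Hoxa cluster stood highest with 9 of 11 genes on all 3 arrays (81.8%), followed by Hoxb with 5 of 10 and Hoxd with 4 of 9 (44.4%), and Hoxc had 1 of 9 (11.1%). By number, the genes of paralog groups 3 to 6 were well above background on all 3 arrays in 11 of 13 cases (84.6%). This compares with 4 of 9 in groups 7 to 9 and 2 of 12 in groups 10 to 13 (16.7%). The signal did not simply follow the number, since the low-numbered Hoxb1, Hoxb2 and Hoxd1 were on no array. All 3 members of group 3 and all 3 of group 6 were on all 3 arrays, and no member of groups 11 and 12 was. These counts are a description of which probes gave signal, and probes of different genes differ in how well they hybridize. A gene whose probe is dim is therefore not shown to be silent.

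**Figure D1:**
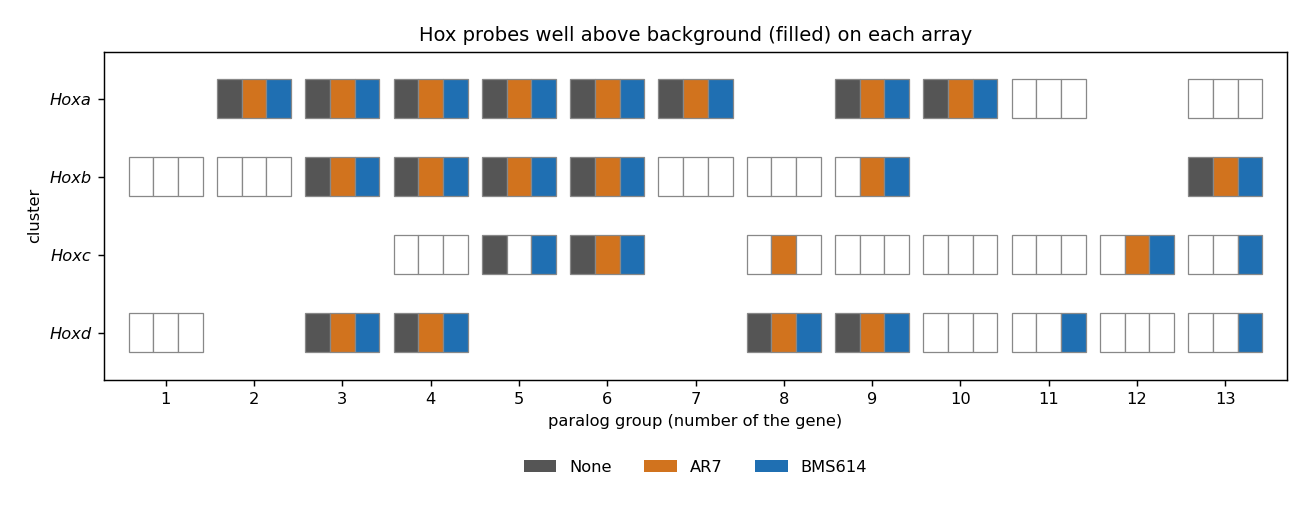
Hox probes well above background by cluster (rows) and paralog group (columns), with 1 box per array in the order None, AR7 and BMS614. Filled boxes mark arrays on which the brightest probe of the gene was well above background, and positions without boxes have no gene or are not shown. The filled boxes form a run over Hoxa2 to Hoxa10, a run over Hoxb3 to Hoxb6, a pair of runs in Hoxd, and single genes in Hoxc.

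Within a cluster, the genes with signal on all 3 arrays were mostly neighbours. In Hoxa they ran without a gap from Hoxa2 to Hoxa10, and Hoxa11 and Hoxa13 had no array on which the brightest probe passed. In Hoxb the run went from Hoxb3 to Hoxb6, and Hoxb1 and Hoxb2 at the one end and Hoxb7 and Hoxb8 at the other passed on no array. Hoxb13, at the far end of the cluster, was on all 3 arrays although its neighbour Hoxb9 was on the AR7 and BMS614 arrays alone. In Hoxd the run held Hoxd3, Hoxd4, Hoxd8 and Hoxd9, with Hoxd1, Hoxd10 and Hoxd12 on no array. In Hoxc, Hoxc6 alone was on all 3 arrays, next to Hoxc5 on 2 of them.

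Promoter sequence was set beside this pattern. The RefSeq promoter table (assembly GRCm38.p6) held 24 windows for 22 of the 39 Hox genes, each with 250 bases before and 50 after a transcription start. All 9 genes of the Hoxd cluster had a window. The 250 bases before the start are shown for 4 genes with signal on all 3, on 1 or on no array, with each CG dinucleotide in capitals.
Hoxd8 (GRCm38.p6 chr2:74704365-74704614, plus strand): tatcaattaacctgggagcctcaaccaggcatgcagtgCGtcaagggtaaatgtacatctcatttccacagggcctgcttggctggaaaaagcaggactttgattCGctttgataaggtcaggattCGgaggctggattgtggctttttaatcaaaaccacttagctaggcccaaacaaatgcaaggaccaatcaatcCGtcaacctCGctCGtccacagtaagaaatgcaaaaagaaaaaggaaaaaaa
Hoxa5 (GRCm38.p6 chr6:52204588-52204837, minus strand): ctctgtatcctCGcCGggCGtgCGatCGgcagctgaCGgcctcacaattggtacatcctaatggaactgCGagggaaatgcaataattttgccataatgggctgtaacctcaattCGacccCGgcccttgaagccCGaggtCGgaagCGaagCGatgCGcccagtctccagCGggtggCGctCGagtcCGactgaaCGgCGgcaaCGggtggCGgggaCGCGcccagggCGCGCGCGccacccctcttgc
Hoxd13 (GRCm38.p6 chr2:74667975-74668224, plus strand): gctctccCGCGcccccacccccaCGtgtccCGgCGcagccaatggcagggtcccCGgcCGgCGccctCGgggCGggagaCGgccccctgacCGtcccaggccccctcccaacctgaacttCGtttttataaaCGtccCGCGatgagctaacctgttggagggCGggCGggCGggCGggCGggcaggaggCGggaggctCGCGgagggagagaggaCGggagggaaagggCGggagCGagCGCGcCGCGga
Hoxd1 (GRCm38.p6 chr2:74762730-74762979, plus strand): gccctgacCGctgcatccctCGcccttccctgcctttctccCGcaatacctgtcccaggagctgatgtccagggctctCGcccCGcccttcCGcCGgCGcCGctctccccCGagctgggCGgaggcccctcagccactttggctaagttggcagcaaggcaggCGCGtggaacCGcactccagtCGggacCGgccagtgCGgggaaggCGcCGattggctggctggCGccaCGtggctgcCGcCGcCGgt
Hoxd8, which was on all 3 arrays, had 6 CG dinucleotides in this stretch and Hoxa5, also on all 3, had 28. Hoxd13, on the BMS614 array only, had 31, and Hoxd1, on no array, had 24. A promoter rich in CG thus stood at genes with and without signal. Over the 24 Hox windows the median ratio of observed to expected CG dinucleotides was 0.63, against 0.38 over all 32851 windows of the table, and 12 of the 24 Hox windows reached 0.6 against 35.8% of all windows. Among the Hox genes, the median was 0.59 over the 13 windows of genes on all 3 arrays and 0.77 over the 8 windows of genes on no array. The windows were also searched on both strands for direct repeats of the retinoic acid receptor core motif spaced by 5 or by 2 bases. The core motif was taken as AGGTCA, with AGTTCA also accepted in its place, and likewise the variant GGGTCA and the further variant GGTTCA, in any pairing. No Hox window held either, and they occur in 0.0974% and 0.268% of all windows. Response elements elsewhere in the clusters lie outside these windows and were not searched. The sequence TATAAA was in 4 of the 24 Hox windows (16.7%) and in 13.6% of all windows.

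The signal of each Hox probe is given next as log2 normalized intensity, in the order None, AR7 and BMS614. The error beside a difference is the SD of the same difference between single spots of probes printed 10 times on each array, taken over 256 such probes in 10 bins of signal. It covers the error of a spot and not that of a culture, a labelling or an array. Probes differ in sequence and affinity, so signals were compared between arrays and not between genes.

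In the Hoxa cluster, the genes that pattern hindbrain and branchial arches had clear signal on every array. Hoxa2, the selector gene of the second pharyngeal arch, read 10.10, 10.06 and 10.05. Hoxa3, required for the thymus and parathyroid, read 11.89, 11.99 and 11.91. Hoxa2 stayed within 2 SD in each comparison. Hoxa3 differed from None by 0.10 ± 0.05 (SD of repeated spots) with AR7, just under 2 SD, and by 0.02 with BMS614, and BMS614 minus AR7 was -0.08 ± 0.04, past 2 SD.

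The middle Hoxa genes also kept their signal. Hoxa4, which acts in the patterning of cervical vertebrae, read 8.26, 8.24 and 8.25. Hoxa5, a gene of lung mesenchyme and airway development, read 9.76, 9.60 and 9.72, and the difference with AR7, -0.16 ± 0.08, was just under 2 SD. Hoxa6 read 6.64, 6.73 and 6.78, near enough to background that its SD was 0.18 with AR7. Hoxa7, which acts in the thoracic skeleton, read 14.45, 14.38 and 14.33. It was lower, with a difference of -0.12 ± 0.05 with BMS614, which is past 2 SD, and by -0.08 ± 0.05 with AR7, which is not.

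The last Hoxa genes with signal include probes near background. Hoxa9, a regulator of haematopoietic progenitors, read 6.61, 6.73 and 6.60 on its brighter probe. Its dimmer probe, also on all 3 arrays, read 5.31, 5.81 and 5.71, and so the probes of the gene differed in the size of the change with AR7 (0.12 ± 0.18 and 0.49 ± 0.33), both within 2 SD. Hoxa10, which patterns the lumbar spine and the uterus, read 5.18, 5.71 and 5.74. It was the single Hox gene on all 3 arrays that was past 2 SD higher with BMS614 than with None (0.56 ± 0.28), and the AR7 difference of similar size (0.53 ± 0.33) was not past 2 SD. Hoxa11, a gene of the forearm and uterus printed 10 times on each array, was dim on every array at 3.49, 3.20 and 3.19.

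In the Hoxb cluster, Hoxb3 and Hoxb6 stayed close to None and Hoxb4 was lower with both compounds. Hoxb4, known for expanding haematopoietic stem cells and as a gene that responds to retinoic acid in the hindbrain, read 7.10, 6.69 and 6.56. Its differences were -0.41 ± 0.18 with AR7 and -0.55 ± 0.17 with BMS614, both past 2 SD. Its spot read 228, 229 and 238 in unscaled intensity, while the 75th percentile of spots rose from 692 on the None array to 780.5 and 909, so the lower value is relative to the other probes of each array. Hoxb5, a gene of enteric neural crest and shoulder position, read 7.02, 7.34 and 6.92. BMS614 minus AR7 was -0.42 ± 0.17 for Hoxb5, past 2 SD, with both within 2 SD of None.

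Hoxb3, a hindbrain gene, read 8.59, 8.47 and 8.43, and its further probe 7.47, 7.51 and 7.58. The 2 probes gave opposite signs against None, all within 2 SD, and so Hoxb3 has no direction here. Hoxb6, a gene of the lateral plate mesoderm, read 9.30, 9.33 and 9.23. Hoxb13, the most posterior Hoxb gene, known from tail and prostate, read 10.70, 10.56 and 10.55. It was lower, with a difference of -0.14 ± 0.05 with AR7 and -0.15 ± 0.06 with BMS614, both past 2 SD and both small.

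In the Hoxd cluster each of the 4 genes with signal followed its own course over the arrays. Hoxd3, which shapes the atlas at the top of the spine, read 7.24, 6.57 and 6.74. It was lower, with a difference of -0.67 ± 0.18 with AR7 and -0.49 ± 0.17 with BMS614. The AR7 value was the single Hox difference past 1.5-fold among genes on all 3 arrays. It was under 1.5-fold with the processed signal (-0.49), the deposited table (-0.43) and a normexp background (-0.34). Hoxd4, a hindbrain gene with a known retinoic acid response element, read 7.48, 7.52 and 6.94. Hoxd4 was lower with BMS614 (-0.54 ± 0.17), within 2 SD of None with AR7 (0.04 ± 0.18), and lower with BMS614 than with AR7 (-0.58 ± 0.17).

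Hoxd8 read 11.85, 11.59 and 11.88 and showed the reverse of Hoxd4. With AR7 it was lower, with a difference of -0.26 ± 0.05 and with BMS614 it was within 2 SD of None (0.04 ± 0.05), so BMS614 was higher than AR7 by 0.30 ± 0.05. Counted in SDs these were the farthest from 0 of the differences of the 19 Hox genes on all 3 arrays, at 4.8 and 6.5 SD, because its bright probe has a small spot error. Hoxd9, which acts with Hoxa9 in limb motor neurons, read 7.22, 7.13 and 7.23. In the Hoxc cluster, Hoxc6, a gene of the thoracic region and mammary gland, read 7.65, 7.61 and 7.57, within 2 SD in each comparison. Hoxd3, Hoxd4 and Hoxd8 lie side by side in the cluster, and with 1 array per condition it cannot be told whether the differences between them would return in another culture.

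**Figure D2:**
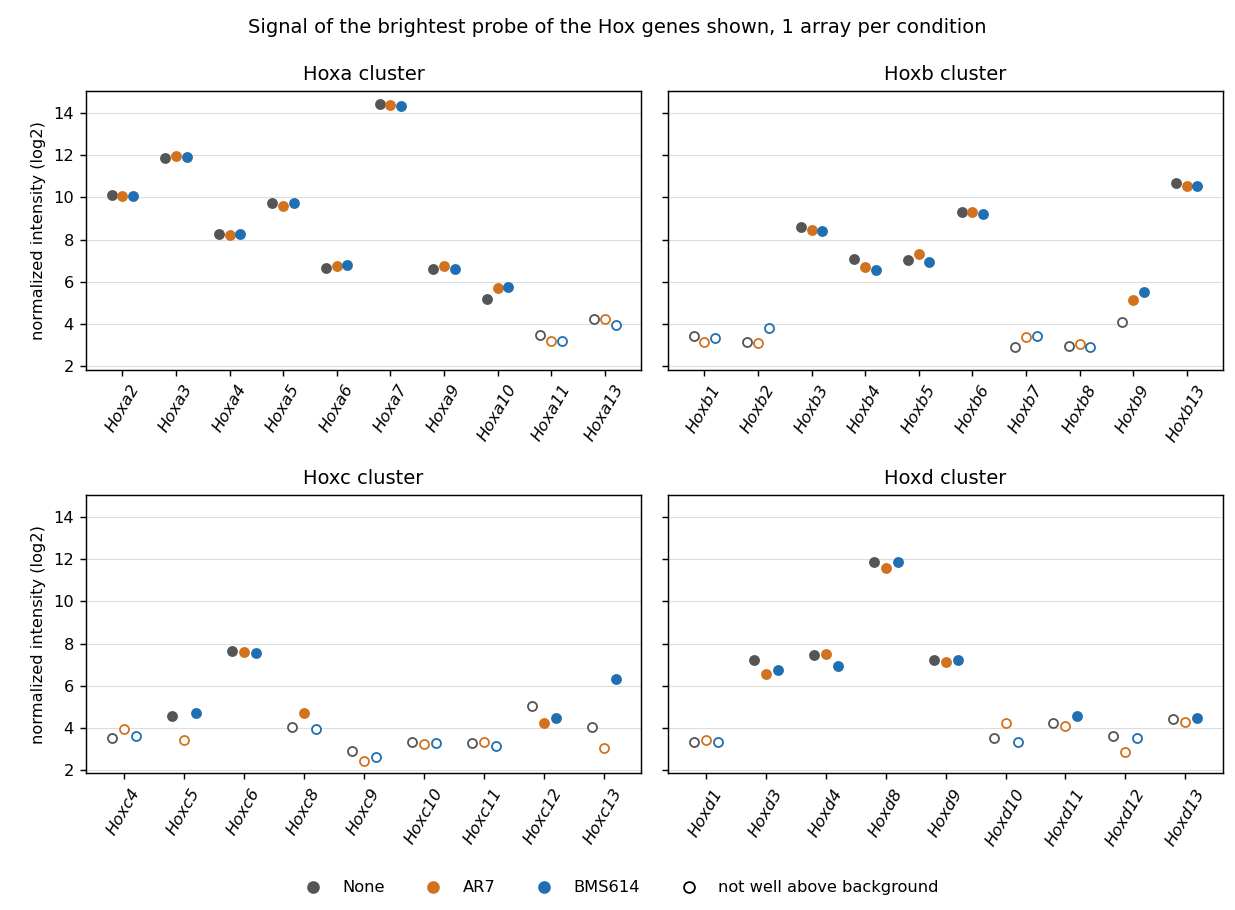
Log2 normalized intensity of the brightest probe of the named Hox genes on the None, AR7 and BMS614 arrays, in 1 panel per cluster, with open circles where the probe was not well above background. Hoxa7 is near 14 on every array and Hoxd8 near 12, most other genes lie close together over the arrays, and Hoxc13 stands out at 6.31 with BMS614 over dim None and AR7 values.

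To ask whether the genes moved as a set, the 19 Hox genes on all 3 arrays were counted together. No Hox gene among them was 2-fold apart in any of the 3 comparisons, where 0.37% (AR7 against None), 0.399% (BMS614 against None) and 0.203% (BMS614 against AR7) of the 13799 named genes on all 3 arrays were. Past 1.5-fold was 1 gene with AR7 (Hoxd3) and 0 with BMS614 or between the compounds, against 2.22%, 2.69% and 1.78% of named genes. With AR7, 4 of the 19 were past 2 SD of repeated spots (21.1%), against 19.2% of all named genes. These were Hoxb4, Hoxb13, Hoxd3 and Hoxd8, and all 4 were lower, where 9.25% of all named genes were lower past this limit and 9.94% higher. With BMS614, 7 of the 19 were past 2 SD (36.8%), against 26.5% of all named genes. Of these, 1 was higher (Hoxa10) and 6 were lower, among them Hoxa7, Hoxb4, Hoxb13, Hoxd3 and Hoxd4. Among all named genes 13.8% were higher and 12.7% lower past this limit. Between the compounds, 5 of the 19 were past 2 SD (26.3%), against 28.7% of all named genes, with Hoxd8 higher in BMS614 (14.5% of all named genes) and 4 lower (14.2%), among them Hoxa3, Hoxb5 and Hoxd4.

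The shares past 2 SD of repeated spots are thus near the background with AR7 and between the compounds. The SD of repeated spots leaves out the variation of culture and labelling. The median difference over the 19 genes was -0.04 with AR7 and -0.08 with BMS614, against -0.00 and 0.00 over all named genes on all 3 arrays. The median size of a difference regardless of sign was 0.10 in each comparison with None, against 0.08 and 0.09 over all named genes. With AR7 12 of the 19 were lower and 7 higher, and with BMS614 14 were lower and 5 higher. Among the 13799 named genes on all 3 arrays, 7033 were lower and 6727 higher with AR7, and 6832 and 6942 with BMS614. Both comparisons use the same None array. Dimmer genes spread farther. The 8 Hox genes with a mean signal of at least 9 lay between -0.26 and 0.10 with AR7 and between -0.15 and 0.04 with BMS614. The 11 dimmer genes lay between -0.67 and 0.53 with AR7 and between -0.55 and 0.56 with BMS614.

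**Figure D3:**
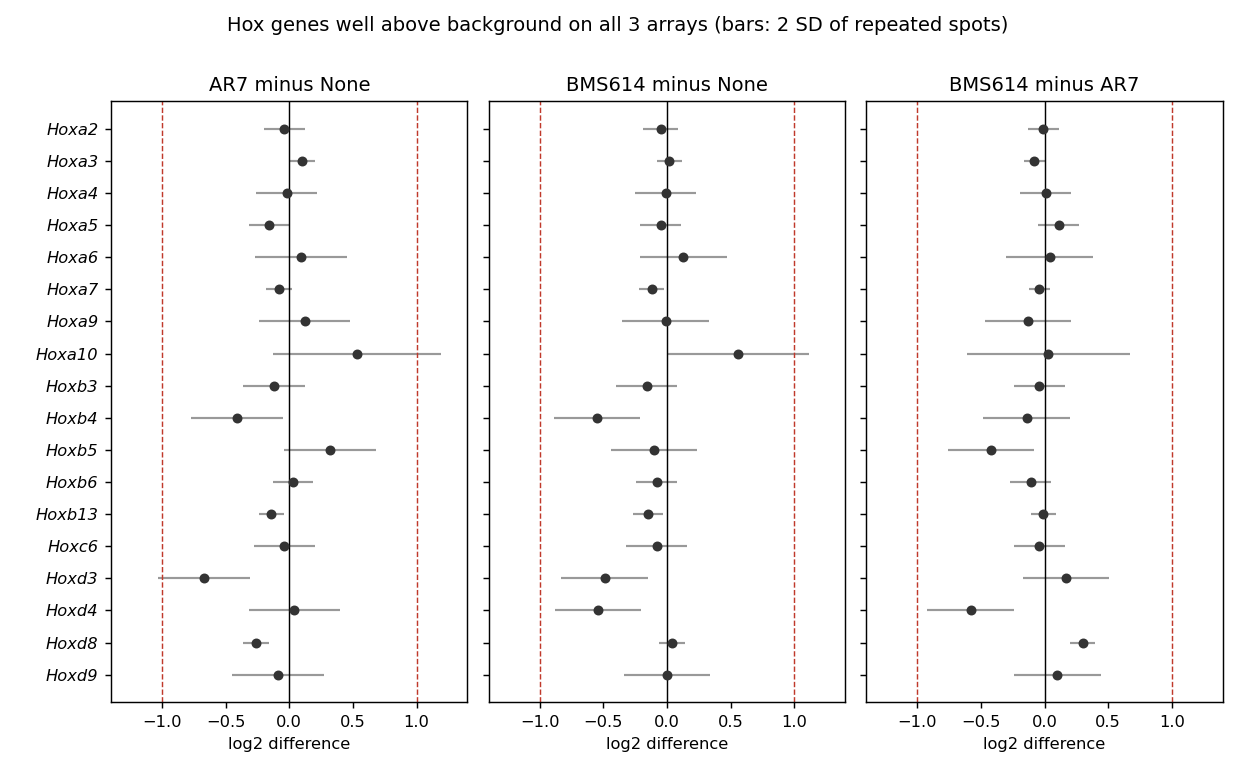
Log2 difference of the named Hox genes on all 3 arrays in the 3 comparisons, with bars of 2 SD of repeated spots and dashed lines at 2-fold. No point reaches a dashed line, Hoxd3 lies farthest from 0 with AR7 at -0.67, and Hoxd4 and Hoxd8 part in opposite directions between BMS614 and AR7.

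**Figure D4:**
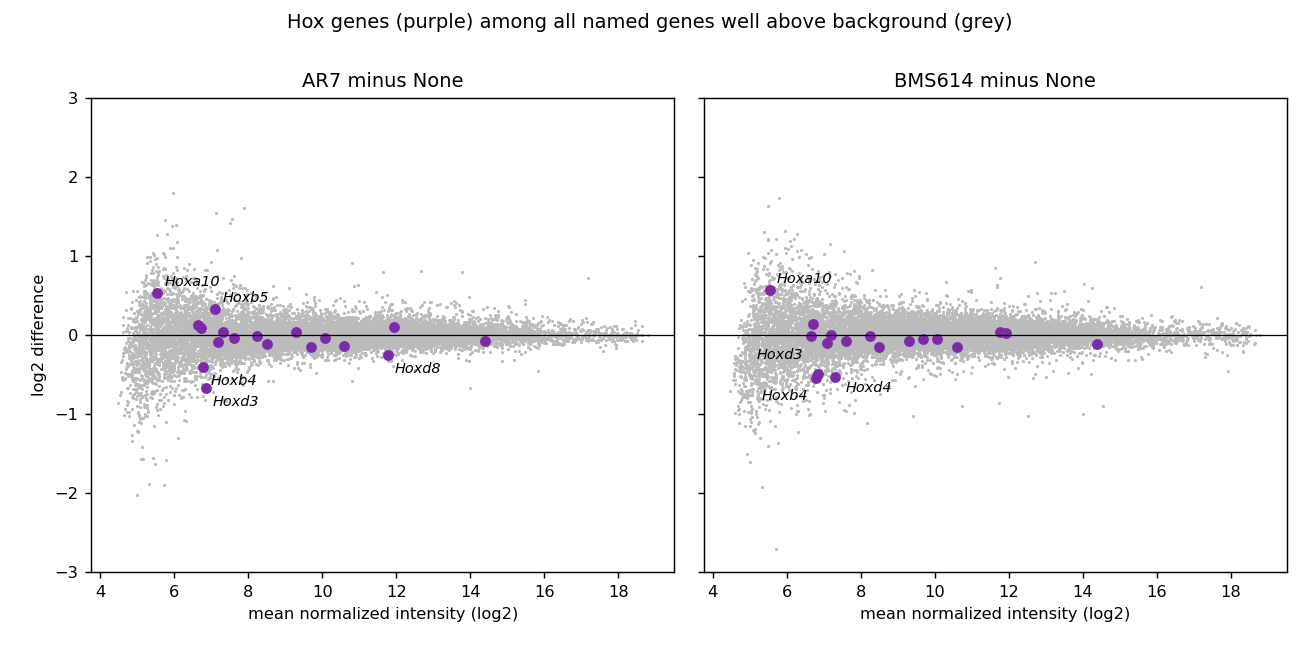
Log2 difference against mean log2 normalized intensity for all 13799 named genes on all 3 arrays (grey) with the named Hox genes among them in purple, for AR7 and for BMS614 against None. The spread of all genes widens towards dim probes, and the purple points lie within the grey cloud.

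The 7 Hox genes on 1 or 2 arrays were near the limit of detection. For these a fold is given as a lower bound, for which the dim side is set to its own signal or, if higher, to the weakest signal that still passed the flag on that array. With such bounds included, 1 of 23 Hox genes compared was past 2-fold with AR7, against 1.02% of all genes compared, 2 of 25 with BMS614 (1.04%) and 2 of 26 between the compounds (1.05%). A gene enters this count by being dim on one side, so the count does not support a change of the Hox genes. Hoxc13, which drives keratin genes of hair and nail, read 4.06, 3.06 and 6.31 and was well above background with BMS614 alone. It was at least 3.50-fold higher than None and at least 7.24-fold higher than AR7. Its single spot read 121, 114 and 221 in unscaled intensity.

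The folds of Hoxc13 depend on the background and on the scaling. With the same background and scaling by the 75th percentile or by spike-in controls, they were at least 3.64-fold against None and 4.91-fold against AR7. Against None and against AR7 they were at least 3.19-fold and 3.59-fold with the processed signal, 1.97-fold and 2.24-fold with the deposited table, and 1.69-fold and 1.87-fold with a normexp background and an offset of 50. Hoxb9, a gene of the thoracic ribs, read 4.09, 5.13 and 5.52 and was at least 1.55-fold higher with AR7 and 2.03-fold higher with BMS614 than with None. With the same normexp background the BMS614 bound was 1.30-fold. Hoxc5 read 4.55, 3.43 and 4.70, dim with AR7 alone, at least 2.14-fold below None and 2.38-fold below BMS614. Its bounds under the 5 other scalings were between 1.19-fold and 1.59-fold against None, and between 1.10-fold and 1.60-fold against BMS614, so both calls are lost in each.

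The other 4 had bounds below 2-fold. Hoxc8, a gene of brachial motor neurons, was well above background with AR7 alone, at 4.03, 4.71 and 3.94. Hoxd11, a forearm gene, read 4.23, 4.11 and 4.55, and Hoxd13, a gene of digits, read 4.42, 4.30 and 4.47, both well above background with BMS614 alone. Hoxc12 read 5.04, 4.23 and 4.47 and had its flag on the AR7 and BMS614 arrays though the None signal was the highest. The flag and the normalized signal can therefore disagree for a single dim spot. The number of Hox genes well above background was 20 on the None array, 22 on the AR7 array and 25 on the BMS614 array. Over all probes the share was 55.4%, 61.2% and 61.8%, so more probes passed on the compound arrays in general. The part of that difference in the Hox counts was not tested.

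The 13 Hox genes on no array had normalized signals from 2.44 to 4.23. They include Hoxb1 and Hoxb2 of the hindbrain, of which Hoxb1 is a classical retinoic acid target, and Hoxd1. They also include Hoxb7, Hoxb8, Hoxc4, Hoxc9, Hoxc10, Hoxc11, Hoxd10 and Hoxd12, and Hoxa11 and Hoxa13. Hoxa13, a gene of the hand and the urogenital tract, had a dimmer probe that passed on the None array alone, at 4.74, 3.45 and 3.25. By that probe Hoxa13 was at least 2.44-fold lower with AR7 and at least 2.10-fold lower with BMS614, whereas the brighter probe read 4.23, 4.23 and 3.95, within 2 SD in each comparison. The 2 probes of Hoxa13 thus disagree. Hoxb2 read 3.13, 3.10 and 3.81, with BMS614 above None by 0.68 ± 0.28 and above AR7 by 0.72 ± 0.32, both past 2 SD. No fold is given for it because its probe passed the flag on no array, and the SD is that of brighter repeated probes. Hoxd1 read 3.33, 3.42 and 3.33. Of transcripts antisense to the clusters, Hoxa11os read 5.04, 5.22 and 5.26 and Hoxd3os1 read 8.53, 8.62 and 8.65, both on all 3 arrays, and the other 14 of a list of 16 noncoding Hox cluster RNAs had no named probe.

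The partners and regulators of Hox proteins were taken from lists of genes. For these and the later lists, the background is that 66.8% of all named genes were on all 3 arrays. Of the named genes on all 3 arrays, 9.94% were past 2 SD higher and 9.25% lower with AR7. With BMS614 these shares were 13.8% and 12.7%. How far the lists depart from them was not tested. All 9 genes of the TALE cofactors (Pbx, Meis and Pknox), which bind DNA together with Hox proteins, were well above background on all 3 arrays, with a median difference of 0.00 with AR7 and -0.07 with BMS614. Past 2 SD were 3 higher and 0 lower with AR7, and 0 higher and 2 lower with BMS614. Meis1 read 11.40, 11.51 and 11.39. Pknox2 was the exception among them, at 5.20, 6.14 and 4.68, which is 0.93 ± 0.33 with AR7 and -0.52 ± 0.28 with BMS614, a dim probe with a difference of -1.45 between the compounds.

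Of the Polycomb genes 28 of 29 were on all 3 arrays, Cbx7 being on none. The catalytic subunit Ezh2 read 12.36, 12.42 and 12.49. The medians were 0.02 and 0.01, with 6 past 2 SD higher and 3 lower with AR7, and 7 and 5 with BMS614. Among those that differed by at least 0.3 in a comparison, Phf1, an accessory subunit of the H3K27 methyltransferase, read 10.40, 10.20 and 10.04. Rnf2, the catalytic H2A ubiquitin ligase, read 10.62, 10.57 and 10.88, and the Polycomb subunit Pcgf3 read 5.93, 5.92 and 5.57. Of the Trithorax and H3K27 demethylase genes all 11 with a named probe were on all 3 arrays. With AR7 4 of them were past 2 SD higher and 0 lower, and with BMS614 2 and 0. Over all named genes on all 3 arrays the shares were 9.94% and 9.25% with AR7 and 13.8% and 12.7% with BMS614. Ash1l, a histone methyltransferase that counters Polycomb silencing, read 9.51, 9.91 and 9.97 (0.40 ± 0.08 and 0.45 ± 0.08). It was the one gene of that list with a difference of at least 0.3.

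The retinoid genes set the context for the 2 RARα ligands. Of 18 retinoid receptor and metabolism genes 13 were on all 3 arrays, with medians of 0.04 with AR7 and -0.02 with BMS614. Rara, which encodes RARα, read 13.35, 13.33 and 13.33 on its brighter probe. Its dimmer probe, also on all 3 arrays, read 10.92, 10.97 and 10.60. By that probe BMS614 minus None was -0.32 ± 0.06 and BMS614 minus AR7 was -0.38 ± 0.05, both past 2 SD. The 2 probes of Rara thus disagree for BMS614. Rarb, a classical target of retinoic acid, was on no array at 3.80, 3.77 and 3.94, and Cyp26c1 and Aldh1a3 were on none either. Past 2 SD were 1 higher and 2 lower with AR7, and 0 higher and 2 lower with BMS614. Rdh10, which makes retinaldehyde from retinol, read 9.51, 9.34 and 9.64. Of the Cdx and ParaHox genes, relatives that act upstream of or beside Hox genes, Cdx1 alone was on all 3 arrays, at 5.99, 5.49 and 5.74, and 4 of the 6 were on none.

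Other transcription factors of positional identity in mesenchyme were well above background on all 3 arrays in 19 of 30 cases, and 8 were on none. The limb mesenchyme genes Prrx1 and Prrx2 read 13.53, 13.52 and 13.66, and 14.13, 14.15 and 14.26. Tbx4, a gene of the hindlimb, was on all 3 arrays at 9.53, 9.49 and 9.53, and its hindlimb regulator Pitx1 was on none. Zic1 read 8.10, 8.45 and 8.12, and Msx1 read 7.95, 8.22 and 8.36, both with a difference of at least 0.3. The medians of the list were 0.06 and 0.08, with 4 past 2 SD higher and 1 lower with each compound. Of 13 genes that flank the clusters 10 were on all 3 arrays, with medians of -0.03 and 0.01. Evx1 and Skap1 beside Hoxa and Hoxb were on none. Among the flanking genes on all 3 arrays, Calcoco1 near Hoxc, which differed by -0.31 between the compounds, was the one with a difference of at least 0.3.

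The labelled cell type was checked against marker genes. Of 12 fibroblast markers 11 were well above background on all 3 arrays, Postn being on none. The medians of these 11 were -0.07 with AR7 and 0.09 with BMS614, with 1 past 2 SD higher and 3 lower with AR7, and 4 and 2 with BMS614. All 11 were higher with BMS614 than with AR7, where 6962 of the 13799 named genes on all 3 arrays were. Of the 11, 6 were past 2 SD higher, against 14.5% of all named genes on all 3 arrays. The median was 0.08 for this difference between the compounds. The part of this difference in the Hox values was not tested. Of the markers of other cell types, Epcam, Krt18, Cldn4, Tek, Tubb3, Gfap and Olig2 were on no array, while Krt8, Cdh1, Cd3e, Adgre1, Pecam1, Kdr, Vwf, Snap25 and Rbfox3 were on all 3, and Ptprc was on the AR7 and BMS614 arrays. Of these markers, Krt8 read 7.38, 6.94 and 6.62, Rbfox3 4.85, 4.58 and 5.40, Snap25 14.06, 14.12 and 13.72, and Col3a1 5.59, 5.26 and 5.30, the genes on all 3 arrays with differences of at least 0.3. A probe that passes the flag does not show that cells of the type are present in the line. In a culture, fewer cells of a type and less RNA per cell cannot be told apart.

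**Figure D5:**
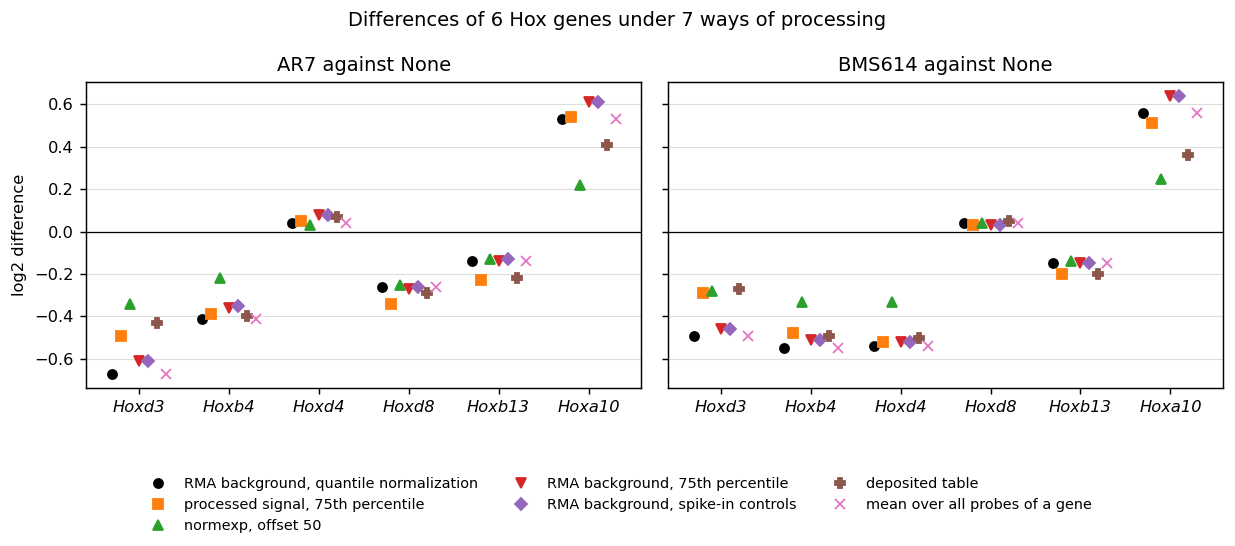
Log2 differences of 6 Hox genes against None under 7 ways of processing, for AR7 and for BMS614, with 1 symbol per way. Each of the genes keeps its sign under all 7 ways, and normexp with an offset of 50 gives the smallest size for Hoxd3 with AR7 (-0.34) and for Hoxb4 with both compounds (-0.22 and -0.33).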

How the data were processed

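The authors deposited the intensity of each spot as read by Agilent Feature Extraction, not yet normalized, and a table of processed signal. They describe RMA through oligo, a package not used here. RMA background correction of the median spot intensity, quantile normalization over the 3 arrays and log2 were run in R 4.3.3 with limma 3.58.1, and the rest in Python 3.11.15 with pandas 2.3.3. Control spots and outlier spots (97 to 140 per array) were left out, and the spots of a probe were averaged. The deposited table, floored at 16 before log2, served as an alternative. A gene is its probe with the highest mean signal. Names come from a gene table of GRCm38.p6, whose coordinates were used for promoter sequences alone. Hox genes well above background on at least 1 array are named with values. A few genes are not reported here by name, though counts and medians include them. Of the other lists, genes on all 3 arrays with a difference of at least 0.3, and genes of defining role, are named. The members and lists were chosen with earlier results of these data known. The calling of differences was tested on simulated data. With 1 array per condition no test was made, and the number of arrays limits the precision.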

Additional observations from a re-analysis of the deposited data

How the results depend on the processing

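No paired analysis was possible because there is only 1 array for each treatment. The number of Hox genes past 2-fold, bounds included, rested on dim spots. With AR7 it was 1, and became 0 with the processed signal, normexp, the 75th percentile, spike-in scaling, the deposited table, the mean over probes or genes on all 3 arrays, and 3 at 1.5-fold or with no filter. With BMS614 it was 2, and became 1 with the processed signal or the mean over probes, and 0 with normexp, the deposited table or genes on all 3 arrays. Between the compounds it was 2, and became 1 with the processed signal, the 75th percentile, spike-in scaling, the deposited table or the mean over probes, and 0 with normexp or genes on all 3 arrays. At 1.5-fold Hoxc8 was past the limit between the compounds as well, with a bound of 1.70-fold. A count of genes on all 3 arrays holds no bounds by construction, and the cause of the other shifts was not tested. Spike-in scaling moved the median of all named genes by 0.127 (AR7), 0.281 (BMS614) and 0.15 (BMS614 against AR7), and values are given relative to it. The median Hox difference over the genes compared was -0.04 with AR7 (-0.04 to -0.01 under the alternatives), -0.05 with BMS614 (-0.08 to -0.00) and 0.00 between the compounds (-0.04 to 0.01). Of the 19 Hox genes on all 3 arrays, 17 had no opposite sign under the 6 alternatives with AR7, 16 with BMS614 and 13 between the compounds. A main value that rounds to 0 was counted as having none, so these counts are upper limits of the genes that kept a sign. Hoxd9 with BMS614 was such a case, at 0.00 and between -0.03 and 0.08 under the alternatives. With a looser flag (signal positive and significant) 28 Hox genes were on all 3 arrays in place of 19. The share of all named genes that pass the looser flag is not given here. The rise is therefore not read as a result about the Hox genes.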
